A study of Homo sapiens with 156 samples.

Results

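The genes examined are the 8 that encode the DNA methyltransferases and their maintenance partners: DNMT1, UHRF1, UHRF2, HELLS, CDCA7, DNMT3A, DNMT3B and DNMT3L. They were chosen by name, as 8 of the 59939 genes in each deposited expression table, and all 8 were found in all 3 tables. The cells were human acute myeloid leukemia lines, MV411, THP1 and NOMO1, each an established line with a rearranged KMT2A gene, and their RNA was sequenced. Cells received GSK3685032 (GSK032), an inhibitor of DNMT1, or decitabine (DAC), a cytidine analog that enters DNA and traps DNMT1 on it. With each compound there was a time series (days 1, 2, 4 and 6 at 400 nM) and a dose series on day 4 (3.2, 16, 80, 400, 2000 and 10000 nM). GSK3484862 (GSK862) at 1000 nM and GSK3510477 (GSK477) at 10000 nM were sampled at days 2 and 4. The solvent DMSO was sampled at days 1, 2, 4 and 6. In total there were 156 libraries, 2 for each of 26 groups per line. On hg38, the genes lie on chromosomes 19 (DNMT1, ENSG00000130816, 10133345 to 10231286; UHRF1, ENSG00000276043, 4903080 to 4962154), 9 (UHRF2, ENSG00000147854, 6413151 to 6507054), 10 (HELLS, ENSG00000119969, 94501434 to 94613905), 2 (CDCA7, ENSG00000144354, 173354820 to 173368997; DNMT3A, ENSG00000119772, 25227855 to 25342590), 20 (DNMT3B, ENSG00000088305, 32762385 to 32809356) and 21 (DNMT3L, ENSG00000142182, 44246339 to 44262216).

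Methylation of cytosine in CG pairs is lost at each round of DNA copying unless it is restored on the new strand. UHRF1 recognises the half-methylated sites behind the replication fork and recruits DNMT1, which methylates the new strand. HELLS is a chromatin remodeler that opens nucleosomal DNA to this machinery, and CDCA7 is the protein that recruits and activates HELLS. UHRF2 is a relative of UHRF1. DNMT3A and DNMT3B set methylation on unmethylated DNA, and DNMT3L is a cofactor of both without enzyme activity of its own, used mainly in germ cells and the early embryo. DNMT1, UHRF1, HELLS and CDCA7 are made mostly in dividing cells, and DNMT3A is one of the genes most often mutated in acute myeloid leukemia.

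The 5 maintenance genes fell together in MV411 and THP1, and the stretch before the start of each is shown for this reason, from 100 bases before to 20 bases after a start listed by RefSeq on GRCh38.p14. Sequences run 5′ to 3′ on the gene's strand, and capitals mark an E2F motif (none in the UHRF2 window), searched as TTTCCCGC, TTTCGCGC, TTTGCCGC and TTTGGCGC on both strands. The windows are chr19:10194934-10195053 on the minus strand for DNMT1, and on the plus strand chr19:4909401-4909520 for UHRF1, chr9:6413099-6413218 for UHRF2, chr10:94545688-94545807 for HELLS and chr2:173354772-173354891 for CDCA7.
DNMT1: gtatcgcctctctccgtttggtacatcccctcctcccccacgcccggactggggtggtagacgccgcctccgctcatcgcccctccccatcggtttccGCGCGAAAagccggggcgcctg
UHRF1: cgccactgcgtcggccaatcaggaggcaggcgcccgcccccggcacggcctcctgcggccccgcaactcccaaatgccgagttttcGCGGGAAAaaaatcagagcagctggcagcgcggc
UHRF2: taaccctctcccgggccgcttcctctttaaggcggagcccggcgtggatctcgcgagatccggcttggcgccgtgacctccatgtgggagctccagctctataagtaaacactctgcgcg
HELLS: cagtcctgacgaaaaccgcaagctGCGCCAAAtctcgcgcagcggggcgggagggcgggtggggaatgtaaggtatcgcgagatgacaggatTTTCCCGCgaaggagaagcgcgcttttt
CDCA7: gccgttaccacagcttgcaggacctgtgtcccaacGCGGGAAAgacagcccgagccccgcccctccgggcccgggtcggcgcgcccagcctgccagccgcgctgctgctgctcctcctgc
The motif begins 2 bases before the listed start of DNMT1 and 14 before that of UHRF1. It begins 76 and 8 bases before that of HELLS and 65 before that of CDCA7. No 2 of the marked matches overlap. Over windows of 250 bases before to 50 after a start, 5 of the 14 starts listed for 7 members held a motif, against 1164 of all 35116 promoters (3.31%). Each searched motif holds a CG pair, and the windows of the 5 maintenance genes held 20 to 46 such pairs, against a median of 14 over all promoters. The shares are therefore not matched for CG content. UHRF1 has 3 listed starts, of which 2 held a motif and the first of these is shown. DNMT3A with 6 listed starts, DNMT3B with 1 and UHRF2 with 1 had none of these letters in the window, and DNMT3L was not matched. For DNMT3B the window was chr20:32779602-32779901, with 3 CG pairs, which lies inside the gene. The stretch before its first base at 32762385 was not searched, so the absence of a motif there is not known. The windows of DNMT1, UHRF1 and HELLS, and some of DNMT3A, also lie inside their genes by the bounds given above. The stretch before the first base of DNMT1, UHRF1 and HELLS was not searched either. A match is a stretch of letters and not a measured binding site.

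The values are FPKM, fragments per kilobase of transcript scaled to library depth, so that levels of different genes can be set side by side within a line. The 3 tables were normalized separately, and levels of different lines are not tested against each other. The steps between low values gave a depth scale, in mega-fragments (mega being the SI prefix), of 43.7 to 94.9 for MV411 libraries, 37.8 to 102.1 for THP1 and 55.6 to 146.9 for NOMO1. Libraries of 1 group correlated at 0.94 or more in MV411 over all genes tested. Of 8 myeloid markers, 6 were at 21.2 FPKM or more in all DMSO libraries, while ITGAM was at 1.02 to 1.25 in MV411 and MEIS1 at 0.268 or less in THP1. Of 10 markers of other cell types, CD3E, MS4A1, CDH5 and COL1A1 were at 0.672 or less in all DMSO libraries. Others were not low: in DMSO of NOMO1, CD3D was at 3.83 to 12.6, COL1A2 at 1.38 to 9.01, KRT8 at 4.35 to 7.69 and EPCAM at 1.54 or less, in MV411 KRT8 was at 2.57 to 7.55, and in THP1 it was at 1.23 to 2.16. Changes are log2 differences of FPKM + 0.5 from limma, and a gene passes, rises or falls at a p-value below 0.05 after Benjamini-Hochberg adjustment over all genes tested in that line. In bulk RNA, fewer cells that express a gene and less RNA of it per cell cannot be told apart.

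In DMSO, the genes of the maintenance machinery were expressed at a several-fold higher level than the de novo enzymes in MV411, and DNMT3L was near 0. UHRF1 had a mean of 177 FPKM ± 30.1 (SD, n = 8) in MV411 and DNMT1 133 ± 10.4, and the ranges of these top genes, 137 to 234 and 116 to 149, overlapped. UHRF2 (60.5 ± 4.27), CDCA7 (55.8 ± 8.23) and HELLS (47.9 ± 11.8) followed, also with overlapping ranges. DNMT3A was at 10.2 ± 1.12 and DNMT3B at 4.82 ± 0.562, and these did not overlap with each other or with the genes above. DNMT3L was between 0 and 0.0619 FPKM in the 8 MV411 libraries.

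The order differed in the other lines in the place of UHRF2. In THP1, UHRF2 (88.2 ± 5.79), DNMT1 (86.4 ± 5.88) and UHRF1 (79.5 ± 10.5) had overlapping ranges at the top. Below them were CDCA7 (40.0 ± 4.86) and HELLS (24.6 ± 5.25), which just overlapped, then DNMT3A (15.0, range 13.6 to 15.9) and DNMT3B (2.82 ± 0.273), each apart. In NOMO1, UHRF1 (65.8 ± 3.09) and DNMT1 (59.1 ± 4.02) led, CDCA7 (30.4 ± 2.56) and HELLS (24.5 ± 2.06) followed, each pair with overlapping ranges, and UHRF2 (13.3 ± 1.49) lay beside DNMT3A (15.3 ± 1.44), also overlapping, above DNMT3B (4.59 ± 0.574). DNMT3L was between 0 and 0.363 FPKM in THP1 and between 0.108 and 0.589 in NOMO1. Between days 1 and 6 of DMSO, CDCA7 fell by 0.39 (log2) in MV411. UHRF1 and CDCA7 rose by 0.34 and 0.28 in THP1, and DNMT3B rose by 0.34 in NOMO1. No other member passed. Over all genes, 6.97% fell in MV411, 2.84% rose in THP1 and 2.63% rose in NOMO1 in that comparison. It leaves out day 4, where some members stood apart. Mean HELLS on days 1, 4 and 6 of DMSO was 41.8, 60.9 and 34.7 FPKM (MV411), 20.5, 32.3 and 24.9 (THP1) and 25.5, 23.5 and 24.1 (NOMO1). Mean UHRF1 was 210, 143 and 167 (MV411), 74.7, 68.9 and 94.8 (THP1) and 67.3, 62.8 and 65.3 (NOMO1).

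**Figure D1:**
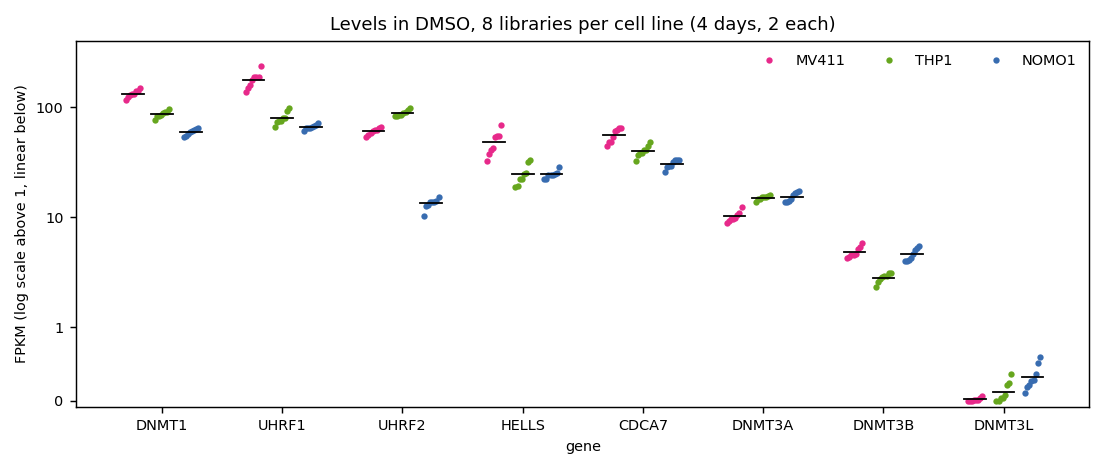
FPKM of the 8 genes (y axis, log scale above 1 and linear below) in the 8 DMSO libraries of each cell line, 2 from each of 4 days, with a bar at the mean. UHRF2 sits near 88.2 FPKM in THP1 and near 13.3 in NOMO1, and DNMT3L lies below 1 in every DMSO library.

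After 4 days at 400 nM, all 5 maintenance genes fell with both compounds in MV411 and THP1, whereas in NOMO1 all 5 fell with DAC and CDCA7 alone with GSK032. CDCA7 had the largest fall of the 5 in each of the 6 comparisons. Against DMSO of the same day, 7 of 8 members fell with GSK032 in MV411 and 1 rose, against 17.3% and 15.9% of all genes, and with DAC 7 fell and 1 rose, against 19.0% and 16.8%. In THP1, 5 of the 7 tested members fell with GSK032 (13.8% of all genes) and 5 with DAC (19.4%), and none rose, where 9.21% and 19.1% of all genes rose. In NOMO1, 2 of 8 fell and 1 rose with GSK032 (8.29% and 10.2%), and 5 fell and 1 rose with DAC (26.2% and 26.1%). The 2 that fell in NOMO1 with GSK032 were CDCA7 and DNMT3A. The 1 that rose in MV411, and in NOMO1 with GSK032, was DNMT3L, which reached the level for testing through treated libraries alone, so that its passing supports nothing. The GSK032 counts rest on the scale of the deposited values: with libraries scaled to equal sums, 3 members passed in MV411, 2 in THP1 and 1 in NOMO1. The share of all genes on that scale is not set beside these counts. In THP1 members also lost their calls without the second GSK032 library.

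The median log2 change over the members was −0.49 in MV411, −0.38 in THP1 and −0.035 in NOMO1 with GSK032, and −0.61, −0.71 and −0.33 with DAC. The median over all genes tested was −0.029 in THP1 with DAC and 0 in the other 5 comparisons. Over all 9 comparisons of GSK032 with DMSO, 30 of 72 member tests fell and 6 rose in MV411, 22 of 63 fell in THP1, and 13 of 72 fell and 3 rose in NOMO1. For DAC the counts were 33 lower and 6 higher of 72, 24 lower and 2 higher of 63, and 27 lower and 5 higher of 72. All rises with GSK032, all in MV411 with DAC and 1 in NOMO1 with DAC were those of DNMT3L, which entered testing through treated libraries. The share of all genes over the same 9 comparisons was not computed, so these pooled counts are a description. No member passed at 3.2 nM of either compound in any line, where 0 to 0.0144% of all genes passed with GSK032 (0.00431% in THP1) and 0.359%, 0.0689% and 0.0722% with DAC in MV411, THP1 and NOMO1. Where a log2 change of at least 1 was required as well, CDCA7 (lower) and DNMT3L (higher) passed in MV411 with GSK032, against 2.76% and 6.55% of all genes, and UHRF1, CDCA7 (lower) and DNMT3L (higher) with DAC, against 3.34% and 6.86%. By that rule no member passed in THP1 with GSK032 (0.336% of all genes lower, 1.94% higher), and CDCA7, lower, was the 1 that passed with DAC (1.93% and 6.23%). In NOMO1 it left DNMT3L, higher, with GSK032 (0.376% lower, 2.55% higher) and CDCA7, lower, with DAC (5.94% and 13.2%).

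CDCA7, which activates the remodeler HELLS, was the first of the 5 maintenance genes to pass along the doses in MV411 and NOMO1. In MV411 at day 4 it was at 53.0 and 44.5 FPKM in DMSO, 15.4 and 16.4 with 400 nM GSK032 and 10.9 and 10.2 with 400 nM DAC. All treated libraries lay below both DMSO libraries, at 32.7% and 21.7% of the DMSO mean. The log2 changes were −1.58 (SE 0.10, adjusted p = 3.9e-13) and −2.15 (SE 0.10, adjusted p = 6.6e-16). At 80 nM, CDCA7 was already at 26.0 and 24.1 FPKM with GSK032 and 29.4 and 24.5 with DAC, changes of −0.94 and −0.84 that passed while UHRF1, DNMT1, HELLS and UHRF2 did not pass. At that dose CDCA7 was the only member that fell with GSK032, against 8.62% of all genes, and 1 of 2 with DAC, against 3.91%.

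In THP1, CDCA7 was at 36.7 and 32.6 FPKM in DMSO at day 4, 17.4 and 18.0 with 400 nM GSK032 and 15.3 and 14.3 with DAC. The groups did not overlap, and the changes were −0.95 (SE 0.060, adjusted p = 1.8e-12) and −1.20 (SE 0.060, adjusted p = 1.4e-15). In NOMO1, it was at 28.8 and 29.1 FPKM in DMSO, 19.2 and 18.4 with GSK032 and 6.52 and 7.06 with DAC. The fall was 0.61 with GSK032 (SE 0.082, adjusted p = 1.8e-06; 0.50 and adjusted p = 0.064 with libraries scaled to equal sums) and 2.01 with DAC (SE 0.082, adjusted p = 3.7e-18), and DAC passed from 16 nM on (−0.45, adjusted p = 4.7e-04). At 16 nM DAC, CDCA7 was the only member of 8 to pass in NOMO1, where 1.97% of all genes fell. With 10000 nM DAC, CDCA7 reached 8.70 and 6.66 FPKM (MV411), 9.49 and 9.44 (THP1) and 4.19 and 4.06 (NOMO1), 15.8%, 27.3% and 14.3% of the DMSO mean.

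UHRF1, the reader of half-methylated DNA, showed the next largest fall with DAC in each line and with GSK032 in MV411. In MV411 it was at 148 and 137 FPKM in DMSO at day 4, 73.0 and 75.7 with 400 nM GSK032 and 54.2 and 46.0 with DAC. Both treated groups lay below the DMSO libraries, with changes of −0.94 (SE 0.14, adjusted p = 3.1e-06) and −1.51 (SE 0.14, adjusted p = 7.1e-10). In THP1 the values were 72.6 and 65.2 in DMSO, 49.0 and 51.9 with GSK032 and 36.4 and 37.9 with DAC. These groups did not overlap either, with changes of −0.44 (adjusted p = 3.7e-04) and −0.88 (adjusted p = 3.7e-09).

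In NOMO1, UHRF1 fell with DAC and not with 400 nM GSK032. It was at 60.5 and 65.1 FPKM in DMSO and 60.9 and 62.2 with 400 nM GSK032, where the groups overlapped (−0.026, 95% interval −0.17 to 0.12), but at 31.6 and 33.6 with DAC (−0.93, SE 0.071, adjusted p = 3.0e-12). With GSK032 it passed in this line from 2000 nM on, and at 10000 nM it was at 42.5 and 40.7 FPKM (−0.59). At 10000 nM in MV411, UHRF1 was at 40.0 and 37.4 with GSK032 and 31.2 and 23.7 with DAC, changes of −1.87 and −2.37.

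DNMT1, the target of GSK032 and DAC, had smaller changes than CDCA7 in all lines. In MV411 it was at 128 and 141 FPKM in DMSO at day 4, 92.4 and 108 with 400 nM GSK032 and 84.2 and 81.8 with DAC. The groups did not overlap, and the changes were −0.42 (SE 0.093, adjusted p = 6.5e-04) and −0.69 (SE 0.093, adjusted p = 7.3e-07). With libraries scaled to equal sums, the GSK032 change was −0.13 and did not pass (adjusted p = 0.72). In THP1 the levels were 96.2 and 89.8 in DMSO, 81.4 and 73.1 with GSK032 and 60.3 and 58.5 with DAC. DAC lay below GSK032 in both libraries, with changes of −0.27 (adjusted p = 0.0078) for GSK032 and −0.64 (adjusted p = 4.0e-08) for DAC. The GSK032 call was lost without the second GSK032 library (−0.19, adjusted p = 0.16) or without the first DMSO library (−0.22, adjusted p = 0.11), and with equal sums (−0.32, adjusted p = 0.25).

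In NOMO1, DNMT1 was at 61.6 and 53.3 FPKM in DMSO and 53.9 and 55.9 with GSK032, overlapping, with a change of −0.061 (95% interval −0.29 to 0.17). It did not pass at any dose or day of GSK032 in this line, whose changes ran from −0.15 to 0.012. With DAC it was at 45.5 and 41.3 (−0.40, adjusted p = 0.0030), a call lost without the first DMSO library (−0.30, adjusted p = 0.072). The measurement is of DNMT1 mRNA and says nothing of the protein.

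HELLS, the remodeler, passed in 5 of the 6 comparisons at 400 nM and day 4. In MV411 it was at 53.0 and 68.7 FPKM in DMSO, 32.6 and 44.2 with GSK032 and 39.0 and 35.1 with DAC. The spread within groups was wide, yet the treated libraries lay below both DMSO libraries (−0.66, adjusted p = 5.3e-04, and −0.70, adjusted p = 2.5e-04). In THP1 it was at 33.0 and 31.6 in DMSO, 24.2 and 20.4 with GSK032 and 17.8 and 18.6 with DAC (−0.53, adjusted p = 0.0051, and −0.81, adjusted p = 2.4e-05). The THP1 GSK032 call was lost without the second GSK032 library (−0.41, adjusted p = 0.10).

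In NOMO1, HELLS was at 24.8 and 22.2 FPKM in DMSO, 25.5 and 26.0 with GSK032 and 18.6 and 19.2 with DAC. The GSK032 libraries lay above those of DMSO without passing (0.13, 95% interval −0.094 to 0.36), and the DAC libraries below (−0.30, adjusted p = 0.022). The DAC call was lost without either DAC library or the first DMSO library (−0.32 to −0.23, adjusted p = 0.055 to 0.18). With rising DAC, HELLS did not fall steadily: in MV411 it was at 33.7 and 29.1 FPKM at 2000 nM and 54.6 and 39.9 at 10000 nM, while GSK032 gave 26.0 and 27.6, then 24.3 and 24.2. At 10000 nM, HELLS was lower with GSK032 than with DAC in MV411 (−0.93, adjusted p = 5.7e-06), THP1 (−0.51, adjusted p = 0.0040) and NOMO1 (−0.29, adjusted p = 0.033), where 14.2%, 22.5% and 22.4% of all genes were lower.

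UHRF2, the relative of UHRF1, moved least of the 5 in MV411. At day 4 it was at 61.8 and 64.6 FPKM in DMSO, 46.6 and 51.8 with 400 nM GSK032 and 46.1 and 47.3 with DAC (−0.36, adjusted p = 0.0034, and −0.43, adjusted p = 4.8e-04). The groups did not overlap, but the GSK032 call was lost without the first GSK032 library (−0.28, adjusted p = 0.065). In THP1 it was at 93.7 and 82.8 in DMSO, 73.1 and 62.4 with GSK032 (−0.38, adjusted p = 0.017) and 55.4 and 51.9 with DAC (−0.71, adjusted p = 1.3e-05). The GSK032 call was lost there without the second GSK032 library (−0.27, adjusted p = 0.22) or the first DMSO library (−0.29, adjusted p = 0.19). In NOMO1 it was at 13.7 and 12.8 in DMSO, 13.5 and 12.2 with GSK032 and 10.5 and 9.94 with DAC, overlapping for GSK032 (−0.044) and apart for DAC (−0.36, adjusted p = 0.0048).

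**Figure D2:**
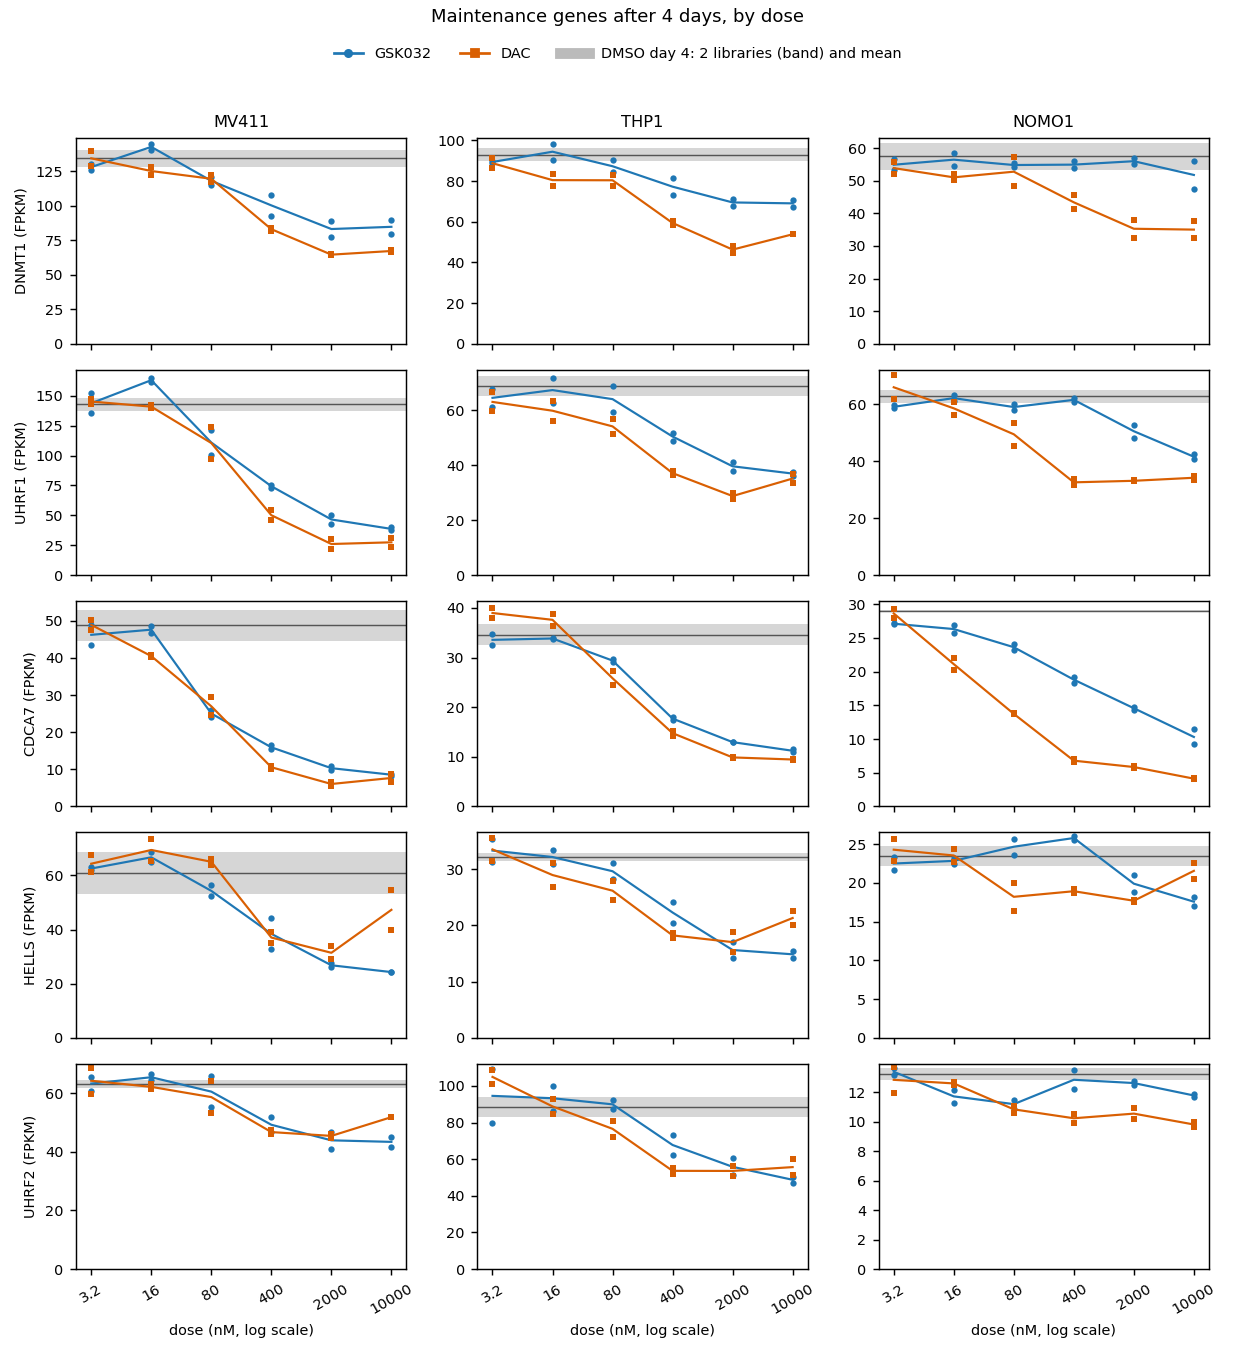
FPKM (y axis, from 0) of the 5 maintenance genes after 4 days against dose in nM (x axis, log scale), with points for libraries and lines through the means of GSK032 and DAC, and a band for the 2 DMSO libraries of that day. CDCA7 falls in all 3 lines, to 8.70 and 6.66 FPKM in MV411 at 10000 nM DAC, while DNMT1 and UHRF2 stay near the DMSO band in NOMO1 with GSK032.

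Over the 6 doses CDCA7 had the steepest slope of the 5 genes in each line with each compound. Per 5-fold step of GSK032, CDCA7 fell by 0.54 in MV411, 0.36 in THP1 and 0.27 in NOMO1, and UHRF1 by 0.44, 0.19 and 0.096 (adjusted p at most 7.4e-08). Per step of DAC, CDCA7 fell by 0.64, 0.47 and 0.56 and UHRF1 by 0.58, 0.22 and 0.22. DNMT1 had slopes of −0.16 and −0.096 with GSK032 in MV411 and THP1 and −0.014 in NOMO1, where the 95% interval ran from −0.052 to 0.025. The DNMT1 slopes with DAC were −0.24, −0.18 and −0.14 and passed in all lines. Over all genes, 28.3%, 25.6% and 24.8% had a slope that passed downwards with GSK032, and 32.5%, 31.8% and 32.4% with DAC. In a contrast added after the data were seen, CDCA7 was lower at 10000 nM than at 400 nM in all 6 comparisons (−0.86 to −0.45), and UHRF1 in the 3 of GSK032 (−0.94, −0.44 and −0.56) and in MV411 with DAC (−0.86). In that contrast 7.09%, 8.33% and 15.9% of all genes were lower with GSK032 and 24.5%, 13.6% and 15.2% with DAC, for MV411, THP1 and NOMO1.

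At 400 nM the falls built up over days. On day 1 only MV411 with DAC had passing members, UHRF1 (127 and 140 FPKM against 187 and 234 in DMSO, −0.65, adjusted p = 0.0069) and CDCA7 (44.5 and 45.7 against 62.0 and 65.1, −0.49, adjusted p = 0.0052), where 1.69% of all genes fell. For CDCA7 the authors' deposited fold change of that comparison had the other sign, and that of HELLS did not match the FPKM either. The day 1 values of these DAC libraries are therefore in doubt. For UHRF1 the sign was the same, but its value rests on the same libraries. On day 2, CDCA7 passed in 5 of 6 comparisons, at −0.45 and −0.43 with GSK032 in MV411 and THP1 and at −0.89, −0.43 and −0.65 with DAC in MV411, THP1 and NOMO1. UHRF1 passed on day 2 with DAC in all 3 lines (−0.66, −0.36 and −0.49) and with GSK032 in none (0.014, −0.043 and 0.082). The shares of all genes that fell on day 2 were 2.48%, 4.12% and 0.424% with GSK032 and 6.96%, 6.26% and 10.3% with DAC.

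By day 6, CDCA7 was at 11.3 and 12.4 FPKM with GSK032 and 6.97 and 7.33 with DAC in MV411, against 48.3 and 48.6 in DMSO. In NOMO1 it was at 15.6 and 14.6 with GSK032 and 3.17 and 2.59 with DAC, against 29.2 and 25.9. The DAC change in NOMO1, −3.06 (adjusted p = 2.5e-22), was the largest fall of any member in any comparison with DMSO. DNMT1 fell with DAC at day 6 in MV411 (63.0 and 63.8 FPKM against 132 and 124 in DMSO), THP1 (56.0 and 52.1 against 89.5 and 83.3) and NOMO1 (40.1 and 36.6 against 64.9 and 54.8), without overlap. In MV411 and THP1 all 5 maintenance genes fell at day 6 with both compounds, where 16.7% and 17.3% of all genes fell with GSK032 and 16.7% and 23.1% with DAC. In NOMO1, 5 of 5 fell with DAC (28.9% of all genes) and CDCA7 and UHRF1 with GSK032 (14.0%). The change at day 6 minus that at day 1 passed downwards for 7 members with GSK032 and 6 with DAC in MV411 (10.2% and 7.7% of all genes), 4 and 6 in THP1 (9.57% and 14.8%) and 2 and 6 in NOMO1 (6.12% and 22.6%). DNMT3L was the 1 member higher by this measure in MV411 with GSK032 and DAC (13.2% and 11.2% of all genes) and in NOMO1 with GSK032 (8.52%), which is a description, since it entered testing through treated libraries.

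**Figure D3:**
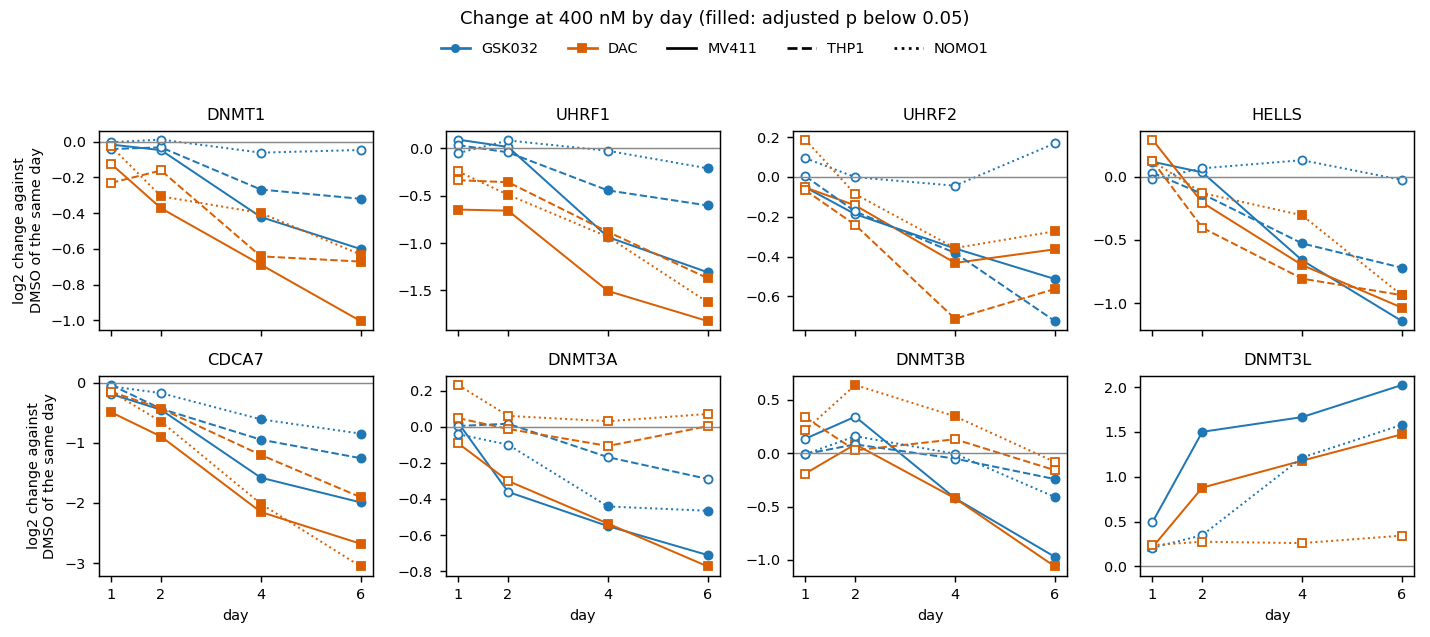
log2 change against DMSO of the same day (y axis) by day (x axis) for the 8 genes at 400 nM, with filled symbols for an adjusted p below 0.05 and solid, dashed and dotted lines for MV411, THP1 and NOMO1. CDCA7 declines with each day in every series, to −3.06 in NOMO1 with DAC, and DNMT3L rises to 2.02 in MV411 with GSK032.

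At a matched 400 nM and day 4, DAC gave lower levels than GSK032 for all 5 maintenance genes in NOMO1, 4 in THP1 and 2 in MV411. In NOMO1, GSK032 exceeded DAC for CDCA7 by 1.41 (SE 0.082, adjusted p = 2.2e-14), UHRF1 by 0.91 (SE 0.071, adjusted p = 1.0e-11), HELLS by 0.44, DNMT1 by 0.34 and UHRF2 by 0.31, all passing. In all, 6 members were higher and 2 lower with GSK032 in NOMO1, against 23.2% and 22.4% of all genes. The higher member beyond the 5 maintenance genes was DNMT3L, at 1.05 and 1.59 FPKM with GSK032 and 0.315 and 0.559 with DAC. It entered testing in NOMO1 through libraries of GSK032 and GSK862 alone, so its place in this count supports nothing. In THP1, 4 members were higher with GSK032 and none lower (10.1% and 14.4% of all genes): UHRF1 (0.44), DNMT1 (0.37), UHRF2 (0.33) and CDCA7 (0.25). In MV411, UHRF1 and CDCA7 were higher with GSK032 (0.57 each, adjusted p = 0.0078 and 4.0e-04), against 3.90% of all genes higher and 3.72% lower. The MV411 differences for HELLS (0.037, 95% interval −0.26 to 0.33) and UHRF2 (0.072, −0.12 to 0.27) did not pass, and the intervals hold differences of either sign.

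DNMT3A, a de novo methyltransferase, fell with GSK032 in MV411 and NOMO1 and not in THP1. In MV411 it was at 8.86 and 9.31 FPKM in DMSO at day 4 and 6.87 and 5.32 with 400 nM GSK032, without overlap (−0.55, SE 0.16, adjusted p = 0.0066). In NOMO1 it was at 13.7 and 17.2 in DMSO and 10.9 and 11.5 with GSK032 (−0.44, SE 0.13, adjusted p = 0.014). In THP1 it was at 14.6 and 15.4 in DMSO and 12.2 and 14.5 with GSK032 (−0.17, 95% interval −0.44 to 0.099). The MV411 call was lost without the second GSK032 library (−0.38, adjusted p = 0.15), and the NOMO1 call without the first GSK032 library (−0.41, adjusted p = 0.10) or the second DMSO library (−0.28, adjusted p = 0.28).

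With DAC, DNMT3A followed no single direction along the doses on the deposited scale. In MV411 it was at 6.34 and 5.77 FPKM at 80 nM, 5.89 and 6.33 at 400 nM and 9.46 and 7.88 at 10000 nM, where it overlapped with DMSO (−0.069). It passed at 80 and 400 nM (−0.55, adjusted p = 0.021, and −0.54, adjusted p = 0.0071), and it was higher at 10000 nM than at 400 nM by 0.47 (adjusted p = 0.020, the contrast added afterwards, where 9.37% of all genes were higher). That difference rests on the scaling: it was 0.097 with equal sums, where the 10000 nM change against DMSO was −0.52, and 0.65 with the median ratio. The 400 nM call was lost without the first DAC library (−0.49, adjusted p = 0.058) or the second DMSO library (−0.50, adjusted p = 0.050). In NOMO1, DAC at 400 nM gave 15.7 FPKM in both libraries, within the DMSO values, and DNMT3A was lower with GSK032 than with DAC at 400 nM (−0.47, adjusted p = 0.0030) and at 10000 nM (−0.51, adjusted p = 0.0014). At 10000 nM it was also lower with GSK032 than with DAC in MV411 (−0.65) and THP1 (−0.33, adjusted p = 0.045).

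DNMT3B, the other de novo methyltransferase, fell in MV411 with both compounds and rose with DAC at 80, 400 and 2000 nM in NOMO1 and at 2000 and 10000 nM in THP1. In MV411 it was at 4.33 and 4.56 FPKM in DMSO at day 4, 3.40 and 2.99 with 400 nM GSK032 and 3.30 and 3.08 with DAC (−0.42 each, adjusted p = 0.0067 and 0.0058). The groups did not overlap, but both calls rested on single libraries: without the second GSK032 library the adjusted p was 0.094 and without the second DMSO library 0.051, and for DAC it was 0.058 without the second DAC library. At day 6 it was at 2.71 and 2.50 with GSK032 and 2.43 and 2.40 with DAC, against 5.35 and 5.84 in DMSO, changes of −0.97 and −1.06.

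In THP1, DNMT3B was at 2.75 and 2.32 FPKM in DMSO at day 4, 2.76 and 2.89 with 400 nM DAC, 5.09 and 4.62 at 2000 nM and 5.24 and 6.01 at 10000 nM. The highest doses stood apart, with a change of 1.01 (SE 0.093) at 10000 nM, where DNMT3B was the only member that rose, against 23.8% of all genes. The authors' deposited fold changes for 10000 nM DAC in THP1 did not match the FPKM, so values at that dose are in doubt. GSK032 at 10000 nM gave 2.22 and 2.33, and the gap between the compounds was −1.14 (adjusted p = 4.2e-11). In NOMO1, DNMT3B was at 4.64 and 5.22 in DMSO, 6.20 and 7.44 with 80 nM DAC (0.43, adjusted p = 1.0e-04) and 6.39 and 6.40 with 400 nM DAC (0.35, SE 0.082, adjusted p = 6.3e-04), and at 4.71 and 5.10 with GSK032 (−0.0052, 95% interval −0.17 to 0.16). The NOMO1 rise with DAC was present on day 2 (6.74 and 6.89 against 4.29 and 4.10 FPKM, 0.64, adjusted p = 6.9e-07), where 11.8% of all genes rose, and no longer passed at 10000 nM (0.098) or at day 6 (−0.082). With GSK032, DNMT3B was lower at day 6 in NOMO1 (3.52 and 4.09 FPKM against 4.98 and 5.45, −0.41, adjusted p = 2.3e-04) and in THP1 (2.43 and 2.56 against 2.95 and 3.14, −0.24, adjusted p = 0.050), the latter just inside the threshold.

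DNMT3L, the cofactor without enzyme activity, was the 1 member that rose in MV411. It was at 0.0098 and 0 FPKM in DMSO at day 4 and at 0.484 and 0.359 with 80 nM GSK032, 1.06 and 1.14 with 400 nM, 1.82 and 1.35 with 2000 nM and 1.69 in both libraries with 10000 nM. All of these lay above the 8 DMSO libraries of that line, whose highest was 0.0619. The change at 400 nM was 1.66 (SE 0.21, adjusted p = 3.6e-07), a scale on which the added 0.5 understates the change of so low a gene. In this line and in NOMO1 it passed the filter through treated libraries alone, which favors a difference in comparisons that hold those libraries. Its rise is therefore given as a value and not as support for anything else.

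DAC gave less DNMT3L in MV411, with 0.792 and 0.512 FPKM at 400 nM (1.18, adjusted p = 5.4e-05) and 0.418 and 0.191 at 10000 nM, where it was lower than GSK032 at the same dose by 1.46 (adjusted p = 2.6e-06, where 24.1% of all genes were higher with GSK032). At 400 nM the gap between the compounds did not pass (0.49, 95% interval 0.048 to 0.92, adjusted p = 0.19). In NOMO1, DNMT3L was at 0.267 and 0.285 in DMSO, 1.05 and 1.59 with 400 nM GSK032 (1.21, SE 0.25) and 0.315 and 0.559 with DAC (0.26, adjusted p = 0.43). It was lower at 10000 nM than at 400 nM of GSK032 there, 0.453 and 0.778 (−0.71, adjusted p = 0.031, the contrast added afterwards). The 400 nM GSK032 libraries are among those through which DNMT3L entered testing in NOMO1, as are those at 10000 nM in MV411. The filter thus favors differences that hold such libraries, and those of this paragraph are values and no support. In THP1 DNMT3L did not reach the level needed for testing. There it was at 0.243 and 0 in DMSO, 0.534 and 0.486 with 400 nM GSK032 and 0.357 and 0.275 with DAC, above both DMSO libraries of that day. Over the 8 DMSO libraries of THP1 the highest was 0.363, on day 1, above both DAC libraries.

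**Figure D4:**
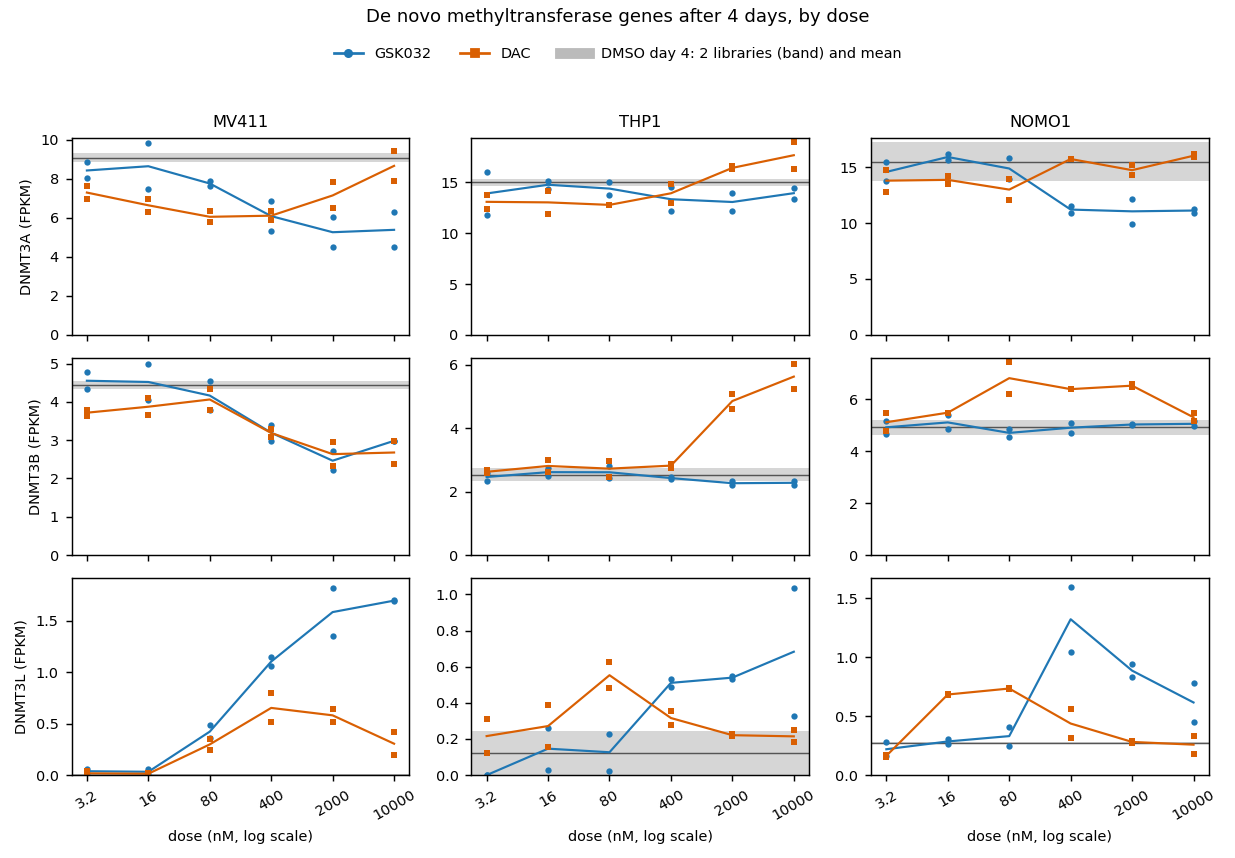
FPKM (y axis, from 0) of DNMT3A, DNMT3B and DNMT3L after 4 days against dose in nM (x axis, log scale), with points for libraries, lines through the means and a band for the 2 DMSO libraries. DNMT3B reaches 5.24 and 6.01 FPKM in THP1 at 10000 nM DAC, and DNMT3L reaches 1.69 FPKM in MV411 with 10000 nM GSK032.

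GSK862 at 1000 nM moved CDCA7 in all 3 lines by day 4. CDCA7 was at 22.1 and 23.6 FPKM in MV411 (−1.07, adjusted p = 2.7e-09), 22.5 and 24.5 in THP1 (−0.55, adjusted p = 1.5e-07) and 19.9 and 18.0 in NOMO1 (−0.60, adjusted p = 2.6e-06), below the DMSO libraries each time. In MV411, 6 members fell and DNMT3L rose (0.623 and 0.366 FPKM, 0.97, adjusted p = 0.0010), against 11.6% of all genes lower and 12.1% higher. In THP1, 3 fell (5.96% of all genes): CDCA7, HELLS (−0.45, adjusted p = 0.030) and DNMT1 (−0.23, adjusted p = 0.039). In NOMO1, CDCA7 fell (7.37% of all genes) and DNMT3L rose (10.5%), from 0.267 and 0.285 to 0.946 and 1.01. DNMT3L entered testing in MV411 and NOMO1 through treated libraries alone, in NOMO1 through some of GSK862 as well. The filter favors its rises, which are given as values and support nothing. On day 2 CDCA7 passed in MV411 (−0.37) and THP1 (−0.34), where 1.49% and 0.840% of all genes fell. Its dose has no match among those of GSK032, DAC and GSK477, so no difference between it and them was tested.

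GSK477 at 10000 nM gave no passing member in any line on day 2 or 4. At day 4 CDCA7 was at 51.6 and 55.6 FPKM (MV411), 34.7 and 35.8 (THP1) and 24.6 and 22.4 (NOMO1), and DNMT3L was at 0 in both MV411 libraries. The NOMO1 value of CDCA7 lay below DMSO (−0.29, 95% interval −0.46 to −0.13, adjusted p = 0.072). Over all genes, 0.132%, 0.155% and 0.361% passed in either direction at day 2 and 1.4%, 0.375% and 1.34% at day 4, in MV411, THP1 and NOMO1. At the matched 10000 nM, CDCA7 was lower with GSK032 than with GSK477 by −2.58 in MV411, −1.61 in THP1 and −1.16 in NOMO1 and UHRF1 by −2.16, −0.86 and −0.45, all passing, where 26.9%, 21.5% and 21.4% of all genes were lower. DNMT1 was lower with GSK032 than with GSK477 in MV411 (−0.81) and THP1 (−0.41) and did not pass in NOMO1 (−0.037, 95% interval −0.26 to 0.19).

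**Figure D5:**
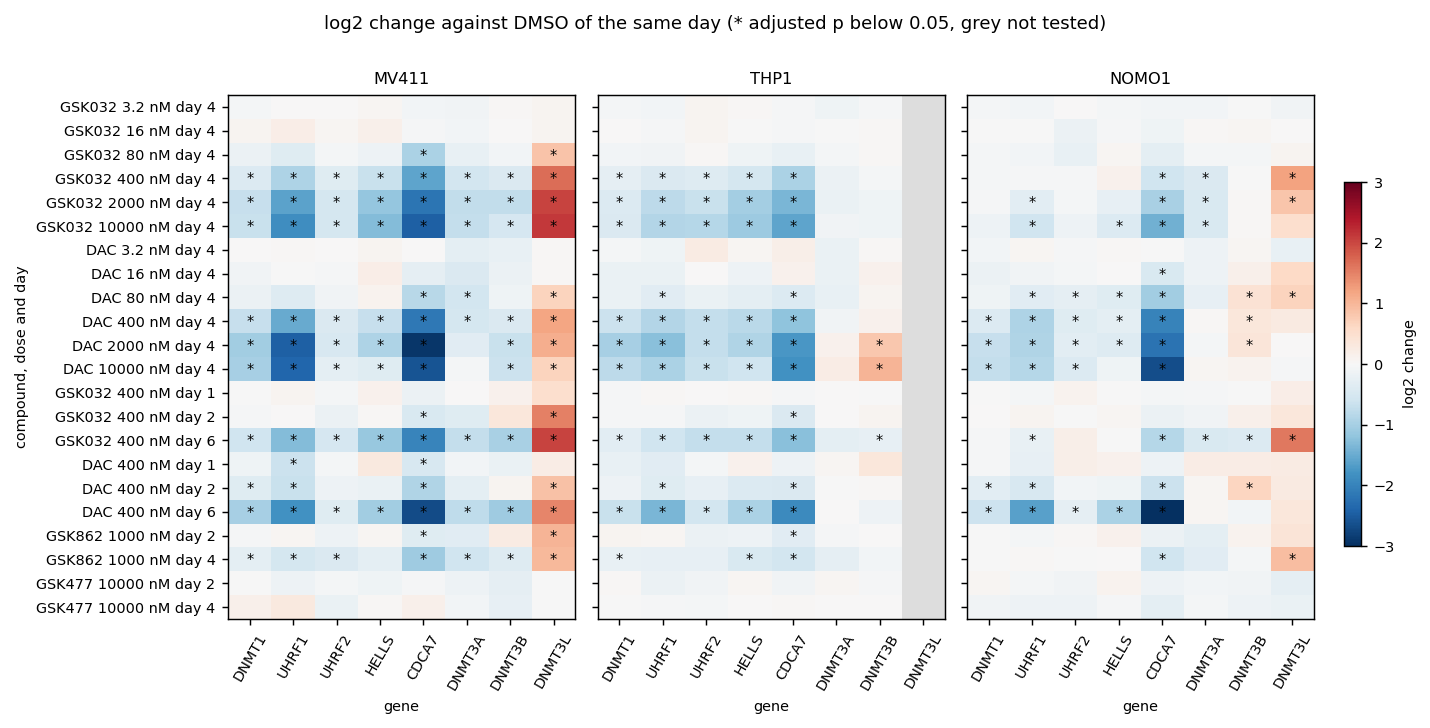
log2 change of the 8 genes (columns) against DMSO of the same day in 22 comparisons (rows) for each line, from blue (lower) to red (higher), with a star at an adjusted p below 0.05 and grey where not tested. CDCA7 has stars in 15 rows for MV411, 13 for THP1 and 12 for NOMO1, and the GSK477 rows hold no star.

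Genes of DNA copying moved with the maintenance genes. Of 20 S-phase genes, 20 fell in MV411 with each compound at 400 nM and day 4, with medians of −1.16 for GSK032 and −1.30 for DAC, among them MCM2, a subunit of the replicative helicase (−1.14 and −1.48), and RRM2, a subunit of ribonucleotide reductase (−1.58 and −1.16). In THP1, 18 fell with GSK032 and 20 with DAC (medians −0.65 and −0.74). In NOMO1, 3 fell with GSK032 (median −0.15) and 17 with DAC (median −0.73), where RRM2 rose by 0.37. Of 10 mitosis genes, all fell in MV411 with each compound, 8 (GSK032) and 10 (DAC) fell in THP1, and NOMO1 had 3 and 7, with CDK1, the kinase of mitotic entry, at −1.39 and −1.22, then −0.78 and −0.54, and without passing in NOMO1. MKI67, a marker of dividing cells, was at −0.92 and −1.26 in MV411, both passing, and at 0.43 and −0.12 in NOMO1, neither passing.

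The summed level of the S-phase genes was 1697 to 1791 FPKM in the DMSO libraries of MV411, 728 to 816 with GSK032 and 672 to 768 with DAC. In NOMO1 it was 1515 to 1632, 1413 to 1438 and 969 to 1020. The part of this shift in the falls of DNMT1, UHRF1, HELLS and CDCA7 was not tested.

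Of 16 further genes of methylation upkeep and of DNMT1 binding, 15 were tested in each line. In MV411, 8 fell with GSK032 and 10 with DAC, and none rose (medians −0.42 and −0.58). The largest falls were those of SUV39H1, a histone H3 lysine 9 methyltransferase (−1.69 and −1.39), PCLAF, a PCNA partner (−1.51 and −1.54), and PCNA, the sliding clamp that holds DNMT1 at the fork (−1.38 and −1.12), followed by LIG1 with GSK032 (−1.03) and CDCA7L, the relative of CDCA7, with DAC (−1.32). In THP1, 9 fell with each compound, led by PCLAF (−0.95 and −0.98) and PCNA (−0.67 and −0.81). In NOMO1, 6 fell with GSK032, led by SETD7 (−0.50) and SUV39H1 (−0.48), and 14 of 15 with DAC, led by CDCA7L (−1.55) and SUV39H1 (−1.07). CDCA7L was at 0.025 with GSK032 in NOMO1, without passing.

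Germline genes, often silenced by methylation, were tested where they passed the level filter, so their counts carry the filter with them. Of 8 tested in MV411, 6 rose and 1 fell with each compound, with DAZL (5.28 and 4.04) and MAEL (4.68 and 4.10) the largest. In THP1, 4 of 6 rose with GSK032 and 5 with DAC, and in NOMO1 4 and 5 of 7, with MAEL at 3.24 and 4.55 and at 1.08 and 4.38. In NOMO1, DAZL passed with DAC (5.41) and did not with GSK032 (0.27).

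Markers of myeloid and of other cells shifted too. Among 8 myeloid markers, 3 rose and 2 fell in MV411 with each compound, and their summed level was 1102 to 1265 FPKM in DMSO, 3451 to 3760 with GSK032 and 2196 to 2633 with DAC. In NOMO1, 3 rose and 2 fell with GSK032, and 5 fell with DAC, with sums of 4174 to 4200, 5527 to 5556 and 2871 to 3333. In THP1, 2 of 7 rose with GSK032, and 3 rose and 1 fell with DAC, with sums of 571 to 638, 575 to 644 and 648 to 674. Markers of other cell types numbered 10, of which 3 (MV411), 4 (THP1) and 7 (NOMO1) reached the level for testing. In NOMO1, 4 of the 7 rose and 1 fell with GSK032, and all 7 rose with DAC, led by CD3D (3.70), COL1A1 (3.39) and KRT8 (3.15), with sums over the 10 of 26.4 to 28.3 FPKM in DMSO, 64.4 to 65.7 with GSK032 and 249 to 258 with DAC. In MV411 the 3 tested rose with each compound, with sums of 3.87 to 4.79, 8.74 to 10.3 and 11.1 to 15.5. In THP1, 1 rose with GSK032 and 3 with DAC, with sums of 3.47 to 3.93, 5.67 to 6.40 and 13.6 to 17.3. In NOMO1, CD3E and MS4A1 reached no more than 0.799 and 0.270 FPKM in any library. Of the 10 genes, 1 in MV411, 2 in THP1 and 2 in NOMO1 were at 0 in both DMSO libraries of day 4. The part of these markers in the members' changes was not tested.

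Likeness was Pearson's r of log2(FPKM + 0.5) over the 52 libraries of a line, averaged over the 3 lines. Among 16541 genes compared, CDCA7 was most like TFDP1 and GINS1 (0.98 each) and PA2G4 (0.979). UHRF1 was most like MCM2 and MCM7 (0.963 each) and BDH1 (0.962), and DNMT1 like TUBGCP3 (0.918), PAXIP1 (0.914) and POLA1 (0.91). HELLS had its nearest genes in TICRR (0.861), KNTC1 (0.859) and ATAD5 (0.843), and UHRF2 in MRE11 (0.864), CENPC (0.856) and GLMN (0.851). The de novo enzymes had lower values, with ERGIC1 (0.723), NAT14 (0.721) and NKD2 (0.714) for DNMT3A and EEF1A2 (0.743), LASP1 (0.726) and CDH24 (0.722) for DNMT3B. All points of a line share the same dose and time series and library scale, so these are descriptions.

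Between members, CDCA7 and UHRF1 were the closest pair (0.945 on average), followed by CDCA7 and DNMT1 (0.878) and UHRF1 and DNMT1 (0.852). DNMT3B went with DNMT1 in MV411 (0.761) and against it in THP1 (−0.545) and NOMO1 (−0.561). DNMT3A and CDCA7 had 0.657 in MV411, −0.014 in THP1 and −0.055 in NOMO1.

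The authors' deposited table of log2 fold changes had the same sign as limma for 92 of 93 passing member values in MV411 and for 59 of 59 in NOMO1. In MV411 the exception was CDCA7 with DAC on day 1, at 0.12 in the authors' deposited table and −0.49 from the FPKM. HELLS, which did not pass in that comparison, did not match either. In THP1 the signs matched for 58 of 62, and for 51 of 51 without the dose-series columns of DAC at 400 and 10000 nM. For DAC at 10000 nM in THP1, DNMT1 was at 0.86 in the authors' deposited table and at −0.78 from the FPKM. The columns of the authors' deposited THP1 fold changes carry the name NOMO1. Which of the sources is right for 10000 nM DAC in THP1 is not known. Every THP1 value that holds that group carries this doubt, among them those of CDCA7, HELLS, DNMT3A and DNMT3B. The FPKM values are used throughout.

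The sums of the deposited FPKM, in units of 1000, ran from 1331 to 3073 (MV411), 1263 to 2325 (THP1) and 1312 to 2052 (NOMO1), and the scaling of libraries bore on the smaller changes. With every library rescaled to the same sum, the median of all genes moved by 0.27 in MV411 with GSK032 and by −0.32 in THP1 with DAC at 400 nM and day 4, and the calls over all genes became 4635 higher and 1503 lower in the first and 2134 and 7032 in the second. CDCA7 then stood at −1.30 and −2.23 (MV411), −0.999 and −1.55 (THP1) and −0.50 and −1.91 (NOMO1) with GSK032 and DAC, of which the NOMO1 value with GSK032 no longer passed (adjusted p = 0.064). In MV411 with GSK032, UHRF1 (−0.65), CDCA7 and DNMT3L kept their calls, and DNMT1 (−0.13), UHRF2 (−0.071), HELLS (−0.37), DNMT3A (−0.28) and DNMT3B (−0.17) did not pass. In THP1 with DAC, DNMT3A passed at −0.45 on that scale, and DNMT3B turned to −0.17 without passing. At 10000 nM DAC in MV411 the median of all genes moved by −0.43 on equal sums and by 0.28 with the median ratio, and DNMT3A stood at −0.52 and 0.22, and UHRF2 at −0.76 and 0.022, while CDCA7 stood at −3.05 and −2.30.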

How the data were processed

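Total RNA, purified on RNeasy columns per the labels' protocols, was sequenced from 156 libraries. Per the submitters' processing notes, Salmon 0.12.0 and DESeq2 (version not given in the sources used here) were used with build hg38. The authors deposited FPKM per gene, 1 table per line, and log2 fold changes against DMSO without p-values. Whether counting used strand is not given in the sources used here, so reads of overlapping antisense genes cannot be told apart. Read counts were not analysed here. Gene names came from GENCODE 29, which held 56511 of 59939 identifiers (94.28%).

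Each line was fitted with limma 3.58.1 (R 4.3.3) on log2(FPKM + 0.5), with 26 group means, 26 residual degrees of freedom and a trend in the variance. Tests covered genes that reached 1 FPKM in 2 or more libraries (MV411 22007, THP1 23226, NOMO1 20763). The script was tested on simulated data. Adjusted p is Benjamini-Hochberg over the genes of a contrast. Separate cultures are not stated for the replicates. The p-values therefore reflect the scatter of these libraries alone, which may be technical. In MV411, 4 libraries of GSK862 and GSK477 at day 4 have no replicate number of their own. Depth came from 9846 genes with 1 transcript, whose low values lay within 0.15 of whole fragments in 54.2 to 89.9% of cases, against 30% by chance, with 150 bases taken off the length. No counting interval is given.

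The members and lists were chosen with earlier results of these data known. All 8 members are named, with up to 4 passing partners per comparison, RRM2, MCM2, MKI67 and CDK1 of the cell cycle, up to 3 germline genes, and the 3 most alike genes per member. CDCA7L in NOMO1, LIG1 and single markers were named after their values were seen. Values of 2 markers of other cell types are not reported here. Alternatives were other pseudocounts, no filter, no trend, both rescalings, a fit on the groups compared only, a replicate block, libraries left out and a second threshold of log2 1.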

Additional observations from a re-analysis of the deposited data

Results flagged for a closer look

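At 400 nM, the day 6 change against DMSO minus the day 1 change passed in 34 of the members' tests, adjusted over all genes with limma. In MV411 with GSK032 it was −1.80 for CDCA7, −1.40 for UHRF1, −1.26 for HELLS, −1.11 for DNMT3B, −0.73 for DNMT3A, −0.59 for DNMT1, −0.46 for UHRF2 and 1.53 for DNMT3L, where 10.2% of all genes passed downwards and 13.2% upwards. In MV411 with DAC it was −2.19 for CDCA7, −1.33 for HELLS, −1.18 for UHRF1, −0.88 for DNMT1, −0.87 for DNMT3B, −0.68 for DNMT3A and 1.26 for DNMT3L (7.7% and 11.2% of all genes). The day 1 change of CDCA7 in that difference is the one with the other sign in the authors' deposited table. All values of MV411 with DAC here rest on those day 1 libraries, which are in doubt. In THP1 with GSK032 it was −1.22 for CDCA7, −0.75 for HELLS, −0.73 for UHRF2 and −0.64 for UHRF1 (9.57% lower). In THP1 with DAC it was −1.76 for CDCA7, −1.07 for HELLS, −1.03 for UHRF1, −0.50 for UHRF2, −0.50 for DNMT3B and −0.44 for DNMT1 (14.8%). In NOMO1 with GSK032 it was −0.79 for CDCA7, −0.40 for DNMT3B and 1.37 for DNMT3L (6.12% lower and 8.52% higher). In NOMO1 with DAC it was −2.91 for CDCA7, −1.38 for UHRF1, −1.06 for HELLS, −0.61 for DNMT1, −0.46 for UHRF2 and −0.30 for DNMT3B (22.6%). DNMT3L reached the level for testing through treated libraries alone, so its values are a description. In THP1 and NOMO1 with DAC the change of DNMT3B on day 1 was above 0 (0.34 and 0.22, neither passing).

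In 2 members the libraries of different lines lay on opposite sides of DMSO at 400 nM and day 4. HELLS with GSK032 was above DMSO for NOMO1 (0.13) and below it for MV411 (−0.66) and THP1 (−0.53). DNMT3B with DAC was below DMSO for MV411 (−0.42) and above it for NOMO1 (0.35) and THP1 (0.13). The lines were fitted separately and the difference between them was not tested.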

How the results depend on the processing

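The counts of members that passed at 400 nM and day 4 were recomputed under each alternative. The share of all genes that passed under each alternative is not set beside them. With equal sums the calls over all genes moved as well, as given above. The counts therefore describe the processing and are no result about the members. In MV411 and NOMO1 they can include DNMT3L, which entered testing through treated libraries. With equal FPKM sums they were 3 for GSK032 in MV411 (8 as deposited), 2 in THP1 (5) and 1 in NOMO1 (3), 3 for DAC in NOMO1 (6), and 4 in MV411 (2) and 5 in NOMO1 (8) for GSK032 against DAC. Rescaling by the median ratio gave 3 for GSK032 in THP1. A fit on only the groups compared, with fewer libraries to estimate the spread, gave 3, 0 and 1 for GSK032 in MV411, THP1 and NOMO1 and 3 for DAC in NOMO1. With a log2 change of at least 1 required as well, the counts for GSK032 and DAC were 2 and 3 (MV411), 0 and 1 (THP1) and 1 and 1 (NOMO1). Leaving out 1 library at a time gave 2 to 5 for GSK032 in THP1, with 2 without the second GSK032 library and 3 without the first DMSO library.

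With the replicate number as a block, the counts for GSK032 and DAC were 8 and 8 (MV411), 5 and 5 (THP1) and 3 and 6 (NOMO1), as without the block. The deviations of libraries with the same number had median correlations of 0.080 (MV411), 0.081 (THP1) and 0.088 (NOMO1). The highest were 0.417, 0.220 and 0.233. The main fit did not pair libraries by number. For DNMT3A the number did matter: the first library was below the second in every THP1 group. The same held in NOMO1 except with DAC at 400 nM and day 4 (15.73 and 15.72 FPKM). The DNMT3A intervals, and its values with a library left out, can carry this difference in those lines.

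Single values that changed sign had not passed. With equal sums, DNMT3B with DAC in THP1 was at −0.17, and with GSK032 in NOMO1 DNMT1 was at 0.044, UHRF1 at 0.079, UHRF2 at 0.058 and DNMT3B at 0.091. With the median ratio, DNMT3B with GSK032 was at 0.0081 in THP1 and 0.017 in NOMO1. With single libraries left out, DNMT3B with GSK032 ranged from −0.15 to 0.051 in THP1. In NOMO1 with GSK032 the ranges were −0.082 to 0.072 for DNMT3B, −0.11 to 0.026 for UHRF2, −0.16 to 0.042 for DNMT1 and −0.079 to 0.026 for UHRF1, and with DAC −0.13 to 0.19 for DNMT3A. Of the other single values under an alternative, 501 kept their direction and side of the threshold, 81 lost a call and 1 gained one. The cause of these shifts was not tested. Depth limits DNMT3L, which is below 1 FPKM in DMSO in every line.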
